A study of Mus musculus with 4 samples.

Results

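The netrin and Slit guidance system was represented by 9 genes, taken by symbol from the 32287 features counted in single-cell libraries of the embryonic mouse penis: the ligands *Ntn1*, *Slit2* and *Slit3* and the receptors *Dcc*, *Neo1*, *Unc5b*, *Unc5c*, *Robo1* and *Robo2*. All 9 were found. Penises of male embryos were collected at E16.5, when the urethra closes, and mRNA was captured from single cells with 10x Genomics 3' libraries, 2 per genotype. Both genotypes carried a Rosa allele with diphtheria toxin behind a stop cassette (*RosaDTA+/f*). Control embryos (DTA-) had no Cre (*Nr5a1-Cre+/+;RosaDTA+/f*). In ablated embryos (DTA+, *Nr5a1-Cre Tg/+;RosaDTA+/f*), Cre driven by *Nr5a1* switched the toxin on in cells that express or once expressed *Nr5a1*. That Cre also acts in the testes and adrenals, so the ablated penises developed with reduced testes and without adrenals, and an effect of the lost penile cells and one of lost hormone cannot be told apart here. The methods also give the ablated line a reporter allele (*Rosa-LSL-tdTomato+/f*), so the genotypes may differ in that allele as well. How many embryos went into a library is not given in the sources used here, so p-values measure the spread between these libraries. The study asked how the remaining cells change when the *Nr5a1* lineage is lost.

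Netrins and Slits are secreted guidance cues, first described for growing axons and also used by migrating mesenchymal, vascular and epithelial cells. Netrin-1 binds DCC and neogenin (*Neo1*), which mostly mediate attraction, and the UNC5 receptors (*Unc5b*, *Unc5c*), which mediate repulsion. DCC and UNC5 proteins are also known as dependence receptors, which can trigger cell death when no netrin is bound. Slits bind Robo receptors (*Robo1*, *Robo2*), and the pair is known for keeping axons from crossing the midline and for setting the site of kidney outgrowth. Neogenin also binds the repulsive guidance molecules, of which *Rgma* is one.

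After filtering, 31132 of 47040 cells remained, between 6573 and 8810 per library, with 29722067 to 33839196 UMIs (unique molecular identifiers, each marking 1 captured mRNA) in all and a median of 3551 to 4700 per cell. The filters kept unequal shares, 52.2% and 67.8% of control and 68.4% and 77.7% of ablated cells. *tdTomato*, the reporter that the methods give to the ablation line, had 0 UMIs in both control libraries and 3579 and 3140 in the ablated ones, and *Hoxa13* and *Hoxd13*, markers of genital tissue, were detected in all 4. Cell barcodes shared between libraries numbered 12 to 21 per pair. Red blood cell markers summed to 4142 CPM in the second ablated library against 10009 to 12550 in the other three. Cells fell into 27 clusters, built without the guidance genes, of which 20 were named from markers, as in periurethra-like. The others keep a number: cluster 0 was led by *Sostdc1* and *Wnt16*, cluster 3 by *Irx1* and *Col7a1*, cluster 5 by *Coch* and *Wif1*, cluster 6 by *Thbd* and *Ptgis*, cluster 12 by *Dsc3* and *Wnt10a*, cluster 15 by *Kera* and *Nefl*, and cluster 17 by *Hand2os1* and *Hand2*. Clusters of 1 name were joined: 2 and 4 (distal glans-like), 8 and 10 (periurethra-like), 9 and 14 (proliferative-like), and 1 and 26 (corpus cavernosum-like). Cluster 8 held 274 and 276 control and 346 and 475 ablated cells, and cluster 10 306 and 281 against 169 and 411. Cluster 2 held 509 and 420 against 586 and 956, and cluster 4 575 and 396 against 367 and 820. The part of such mixes in the differences was not tested. Levels are in CPM, the share of a gene in the UMIs summed per library and population, brought to a fixed total with edgeR's TMM factors. They are not divided by gene length. Each gene is mainly compared with itself across populations, and levels of different genes set side by side are descriptions. The genotypes were tested in the 19 populations that had 20 cells or more per library, and a gene with an adjusted p under 0.05 is called.

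The genes are protein coding, and their places are given on GRCm38. *Ntn1* lies on the minus strand of chromosome 11 (68209364 to 68400823). *Neo1* is on chromosome 9 (58874687 to 59036441, minus strand), *Unc5b* on chromosome 10 (60762593 to 60831581, minus strand) and *Unc5c* on chromosome 3 (141465216 to 141834924, plus strand). *Slit2* is on chromosome 5 (47983138 to 48307733, plus strand) and *Slit3* on chromosome 11 (35121224 to 35708507, plus strand). *Robo1* (72308306 to 73046095, plus strand) and *Robo2* (73891839 to 74411825, minus strand) are neighbours on chromosome 16.

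Sequence just upstream of 3 genes is shown for what follows: *Slit2* and *Robo2*, a ligand and its receptor that were both called higher in cluster 6 and in the distal glans-like cells, and *Neo1*, which was called in none. The sequences are from RefSeq (GRCm38.p6), read 5′ to 3′ on the gene's strand and ended 1 base before the annotated gene start, and capitals mark the GC box GGGCGG or its reverse complement CCGCCC.
Slit2, chr5:47982905-47983137, plus strand: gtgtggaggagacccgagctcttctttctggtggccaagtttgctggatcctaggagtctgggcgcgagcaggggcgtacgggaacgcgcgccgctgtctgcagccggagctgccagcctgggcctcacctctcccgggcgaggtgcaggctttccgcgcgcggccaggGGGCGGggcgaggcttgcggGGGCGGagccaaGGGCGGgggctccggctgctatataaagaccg
Robo2, chr16:74411826-74412075, minus strand: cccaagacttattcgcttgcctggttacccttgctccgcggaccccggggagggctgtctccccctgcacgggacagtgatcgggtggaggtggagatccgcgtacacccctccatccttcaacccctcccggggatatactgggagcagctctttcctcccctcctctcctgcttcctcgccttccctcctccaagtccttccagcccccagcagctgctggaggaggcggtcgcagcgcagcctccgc
Neo1, chr9:59036442-59036691, minus strand: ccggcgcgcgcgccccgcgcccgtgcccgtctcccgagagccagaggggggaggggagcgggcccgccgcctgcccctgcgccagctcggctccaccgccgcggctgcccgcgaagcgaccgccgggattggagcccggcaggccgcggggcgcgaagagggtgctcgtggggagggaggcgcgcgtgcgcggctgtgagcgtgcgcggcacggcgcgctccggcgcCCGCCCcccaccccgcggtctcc
The *Slit2* stretch held 3 GC boxes, that of *Neo1* 1 and that of *Robo2* 0, while 32.7% of all 32851 RefSeq windows of 250 bases before a start held at least 1. Their GC content was 70.4%, 83.2% and 65.6%, in that order, and the median over all windows was 52.4%. The half-site TGTTCT or its reverse complement AGAACA, recognised by androgen and glucocorticoid receptors, was in none of the 3 stretches and in 16.1% of all windows. A 3' library does not measure where a transcript starts, so these letters are a description of the annotated start only.

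Of the ligands, *Ntn1* was highest in cluster 3, at 82.6 CPM on average over the 4 libraries (70.9 to 90.0), followed by the joined prepuce-like classes at 74.6 CPM and cluster 0 at 69.5 CPM, whose ranges overlapped. It was low in the corpus cavernosum-like cells, at 2.14 CPM. *Slit2* had its highest means elsewhere, in cluster 5 at 292 CPM and cluster 6 at 226 CPM, where *Ntn1* reached 8.75 and 26.2 CPM. The *Slit2* ranges of these clusters overlapped, and only the 2 ablated libraries put cluster 5 above cluster 6. *Slit3* led in cluster 15 at 148 CPM, followed by the joined prepuce-like classes at 127 CPM, whose ranges overlapped. Those classes ran from 57.1 CPM in an ablated library to 202 CPM in the second control library. That control put them above cluster 15, and the other 3 libraries did not. *Slit3* reached 82.3 CPM in the Schwann cell-like cluster, where the next of the 9 genes, *Neo1*, was at 22.8 CPM. By the mean over the 4 libraries, the 3 ligands thus had different highest populations.

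Among the receptors, *Dcc* stood out in 1 population. Cluster 6 held 82.7 CPM, and the next 3 populations, the joined prepuce-like classes, the osteogenic-like cells and the periurethra-like cells, held 22.0, 21.0 and 19.3 CPM with overlapping ranges. Every library put cluster 6 above the next population. The joined prepuce-like classes ran from 5.58 CPM in a control library to 40.1 CPM in an ablated one. Only the 2 ablated libraries put them above the osteogenic-like cells, so their place in this order did not hold in control. *Dcc* had 0 UMIs in the Schwann cell-like and pericyte-like clusters. *Neo1* was spread evenly by comparison: it ranged from 43.4 CPM in cluster 3 to 109 CPM in cluster 5 among the numbered clusters and was lowest in macrophage-like cells, at 7.70 CPM. *Unc5b* was at its highest in endothelium-like cells (105 CPM) and pericyte-like cells (77.6 CPM), whose ranges overlapped, and reached 66.2 CPM in the osteogenic-like cells. *Unc5c* peaked in cluster 17 (334 CPM), ahead of the osteogenic-like cells (224 CPM) and the distal glans-like cells (139 CPM). The ranges of these populations lay clear of each other, but that of the distal glans-like cells overlapped cluster 12, the next in order. *Robo1* stood clear of the rest in cluster 12 (202 CPM). *Robo2* was high in a broad set led by cluster 3 (325 CPM), cluster 5 (281 CPM) and cluster 0 (269 CPM), which overlapped.

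**Figure D1:**
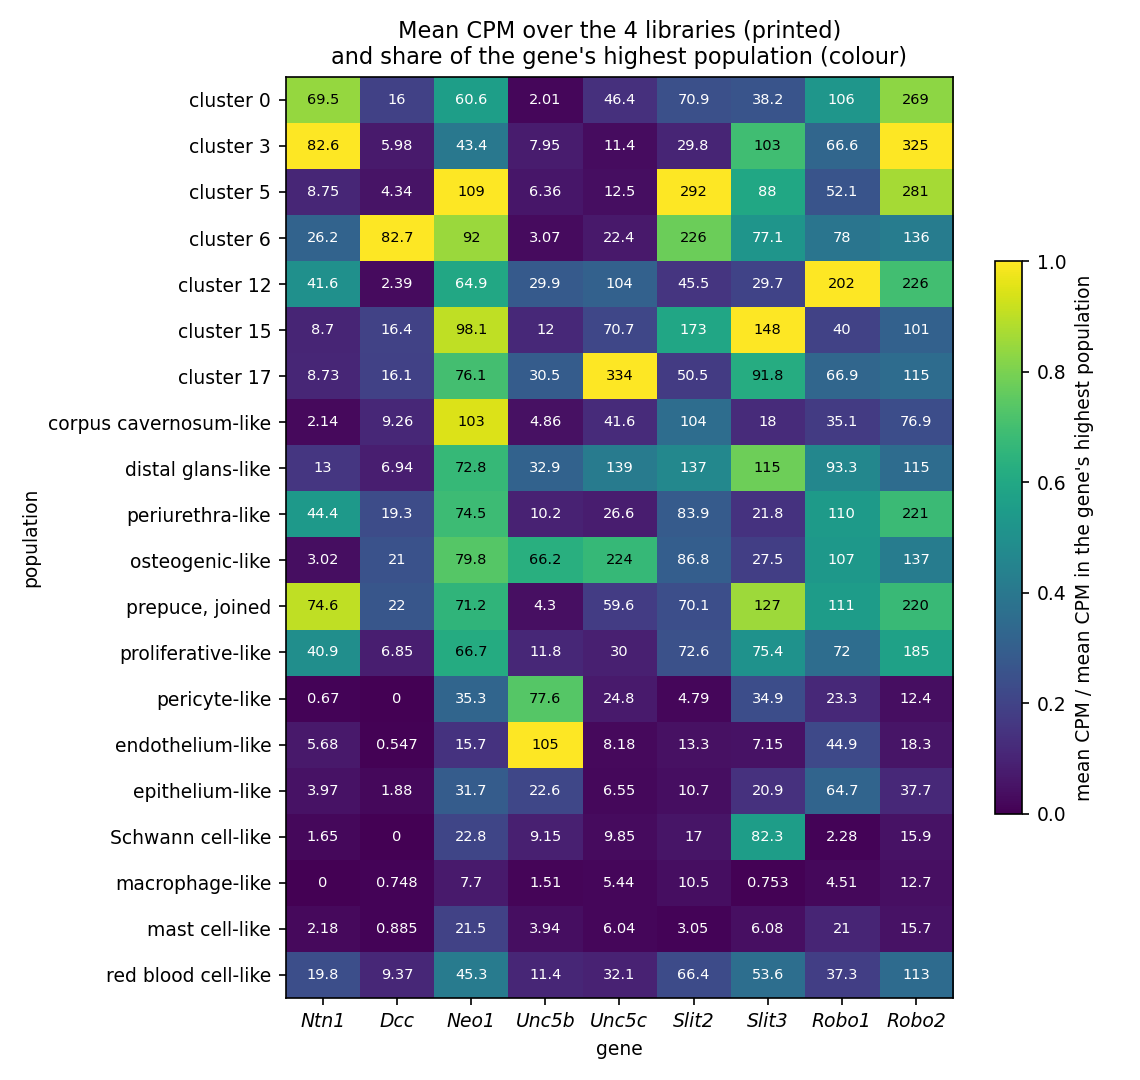
Mean CPM over the 4 libraries for each of the 9 genes (columns) in each population (rows); the printed number is the mean and the colour its share of the mean in that gene's highest population, so colours compare populations within a gene. *Dcc* was high in cluster 6 (82.7 CPM), *Slit2* in cluster 5 (292 CPM) and *Unc5b* in endothelium-like cells (105 CPM).

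By the correlation of log2(mean CPM + 10) over the 19 populations, among 10237 genes at 20 CPM or more in at least 1 population, the genes whose pattern was most like each member were named as a description, since all points share the same 4 libraries. For *Dcc* they were *Lrrn4cl*, *Glt8d2* and *Ptgis* (r = 0.87, 0.86 and 0.85), for *Robo2* *Bcl2* and *Cdh11* (0.94 and 0.93), and for *Slit2* *Zfp521*, *Fgf10* and *Serpinf1* (0.90 each). For *Ntn1* they were *Osr2*, *Tpbg* and *Vps13b* (0.93, 0.91 and 0.90), for *Neo1* *Vasn*, *Nfix* and *Snhg5* (0.94, 0.93 and 0.93), and for *Slit3* *Id4*, *Gli2* and *Rbms3* (0.86 each). *Unc5b* came closest to *Tspan12*, *Caskin2* and *Csrp2* (0.83, 0.81 and 0.80), *Unc5c* to *Mier1*, *Aplp1* and *Lhfpl3* (0.88, 0.87 and 0.87), and *Robo1* to *Sema3f*, *Ccdc66* and *Enah* (0.91, 0.88 and 0.87). *Enah* is itself an intracellular partner of Robo receptors and was in the list of pathway genes.

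*Dcc* spans 1097 kb of chromosome 18 (GRCm38, 71253634 to 72351069, minus strand, protein coding), more than any other of the 9. Summed over all cells of a library, *Dcc* rose in the ablated penises and was the 1 member called of 9. It was at 7.48 and 6.91 CPM in the controls and at 23.3 and 20.9 CPM in the ablated libraries, so the genotypes did not overlap. The log2 fold change was 1.62 (SE 0.147, 3.07-fold, adjusted p = 0.0198 in edgeR's quasi-likelihood test). Over all 15977 genes tested, 0.488% were called. The share of cells with a *Dcc* UMI was 2.84% and 2.502% in control and 6.92% and 6.54% in ablated libraries, although the kept ablated cells had fewer UMIs (median 3551 and 3560 against 4700 and 4077). Thinned to 1000 UMIs per cell, the shares were 0.715% and 0.762% against 2.46% and 1.79%. In macrophage-like cells, which should lack the gene, 0 of 144 control cells, which allows a share of up to 2.08%, and 1 of 148 ablated cells had a *Dcc* UMI.

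The other receptors and the ligands were not called over all cells by edgeR's quasi-likelihood test, whereas DESeq2 and edgeR's likelihood ratio test called *Unc5c* (adjusted p = 0.00401 and 0.0113) and *Slit2* (0.00732 and 0.0158) as well. *Slit2* was at 82.5 and 79.0 CPM in control and 124 and 111 CPM in ablated libraries (log2 fold change 0.54, SE 0.116, adjusted p = 0.114), and *Unc5c* at 52.6 and 38.3 against 69.0 and 93.7 CPM (0.84, SE 0.208, adjusted p = 0.156). *Robo2* (132 and 181 against 215 and 206 CPM, 0.42, adjusted p = 0.297) and *Robo1* (67.4 and 80.2 against 81.8 and 97.3 CPM, 0.28, adjusted p = 0.420) also lay apart by genotype, as did 48.8% of all genes tested. *Unc5b* had a log2 fold change of 0.40 (adjusted p = 0.432), *Ntn1* of 0.10 (0.833), *Neo1* of -0.02 (0.947) and *Slit3* of -0.24 (0.406). With 1 library left out the value of *Unc5b* ran from 0.067 to 0.66, and without the red blood cell-like and prepuce-like cells that of *Slit3* was -0.0049. In bulk sums of this kind, fewer cells of a type and less RNA per cell cannot be told apart.

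The cells with a *Dcc* UMI numbered 384 in control and 1121 in ablated libraries, and their other transcripts are given beside those of all remaining cells. *Col1a1*, the collagen of fibroblasts and bone, was in 100% of them in control and 98.6% in ablated libraries, against 92.3% and 90.7% of the others. *Pdgfra*, a receptor of mesenchymal cells, was in 42.7% and 45.8% against 36.7% and 41.1%, and *Twist2* in 33.9% and 36.7% against 38.9% and 33.1%. The *Dcc* cells were also deeper, with a median of 4950.5 and 3941 UMIs against 4342 and 3533.5.

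The 7 neuron markers went both ways. In ablated libraries *Stmn2* was in 8.03% of the *Dcc* cells against 4.20% of the others, *Isl2* in 6.60% against 4.41%, *Elavl4* in 1.61% against 0.874% and *Snap25* in 0.624% against 0.302%, while *Tubb3* was in 0.178% against 0.996% and *Prph* in 0.268% against 0.289%. In control libraries *Stmn2* was in 1.82% against 2.66%, *Isl2* in 6.25% against 5.65%, *Elavl4* in 0.781% against 0.825%, *Tubb3* in 0.260% against 1.12%, and *Snap25* and *Prph* in none against 0.0427% and 0.320%. *Elavl3* was too rare to be read, at 0.0498% and 0.109% of the other cells. The 7 summed to 29.5 and 38.6 CPM in control and 55.4 and 54.2 CPM in ablated libraries over all cells. Of these, *Stmn2* had 255 and 678 UMIs in control and 1089 and 1108 in ablated libraries. *Isl2* had 465 and 400 against 350 and 442, and each other marker at most 111 in a library. *Stmn2* was among the leading genes of cluster 16, which held 2 and 5 control and 540 and 304 ablated cells. The part of the 7 markers in the difference of *Dcc* was not tested.

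Within populations, the members were called higher in the ablated penises in 18 of 119 tests, while over all genes 1.52% of tests were called higher and 1.63% lower. They were called lower in 0, where 3 tests were lower at an unadjusted p under 0.05 in edgeR's quasi-likelihood test and DESeq2 and edgeR's likelihood ratio test called 0. DESeq2 called 10 tests higher and the likelihood ratio test 29. The calls came from 4 of the 9 genes: *Dcc* (5 of 10 populations), *Robo2* (5 of 14), *Slit2* (5 of 13) and *Unc5c* (3 of 14). In cluster 3, cluster 5 and cluster 15, *Dcc* passed the filter on low counts only through the ablated libraries. All populations share the same 4 libraries, so these counts are not independent of each other. The median log2 fold change over the 119 tests was 0.36, and 0.00 over all genes tested. Because the 9 genes were chosen with earlier results of these data known, comparisons of them with all genes are descriptions and not tests.

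By population, cluster 6 had 4 of 8 members called higher (*Dcc*, *Unc5c*, *Slit2* and *Robo2*), where 5.13% of all genes were, although its control and ablated cells lay apart at a finer clustering. The distal glans-like cells had 3 of 9 (*Unc5c*, *Slit2* and *Robo2*, against 2.03% of genes). Cluster 0 had 2 of 9 (*Dcc* and *Unc5c*, 0.925%), cluster 5 had 2 of 9 (*Dcc* and *Slit2*, 5.09%) and the corpus cavernosum-like cells had 2 of 8 (*Dcc* and *Slit2*, 3.99%). With 1 member each, cluster 3 (*Dcc*, 0.333%), cluster 12 (*Robo2*, 0.123%), cluster 17 (*Robo2*, 0.865%), the osteogenic-like cells (*Robo2*, 1.77%) and the periurethra-like cells (*Slit2*, 1.44%) followed. In macrophage-like and mast cell-like cells none of the 9 passed the filter on low counts.

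**Figure D2:**
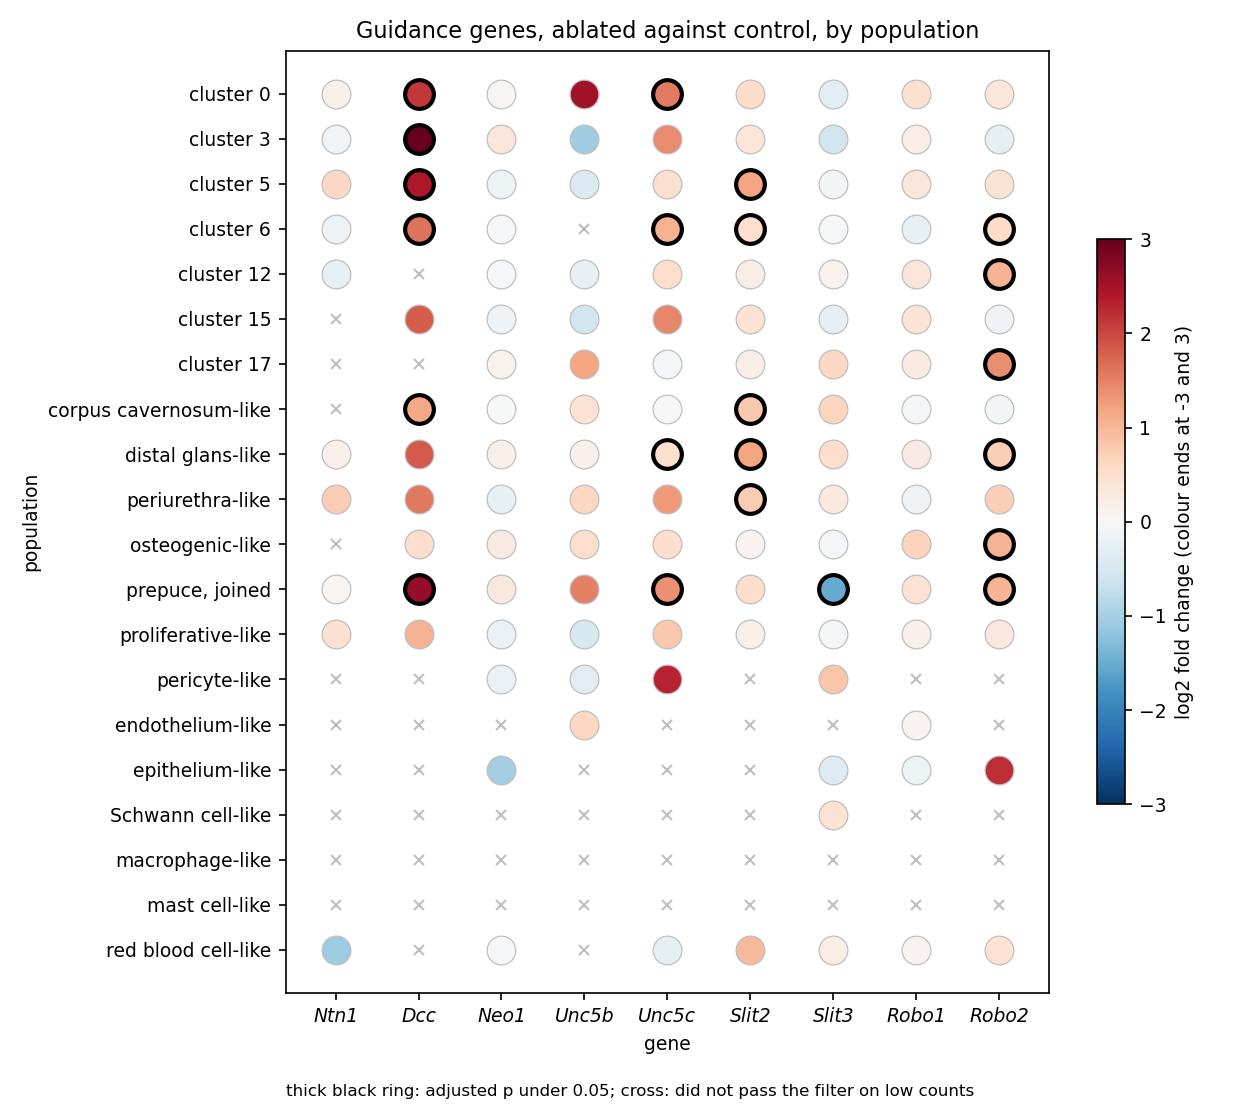
Log2 fold change of each of the 9 genes (columns), ablated over control, in each population (rows); red is higher and blue lower in the ablated penises, a thick black ring marks an adjusted p under 0.05 and a cross a gene that did not pass the filter on low counts. *Dcc*, *Unc5c*, *Slit2* and *Robo2* carry the rings in the 19 tested populations, and *Slit3* has the 1 ringed blue point, in the joined prepuce-like classes.

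*Dcc* rose in the 1 population where it was highest. In cluster 6 it was at 41.0 and 39.7 CPM in control and 137 and 113 CPM in ablated libraries (log2 fold change 1.63, SE 0.189, adjusted p = 3.49e-05). The share of cluster 6 cells with a *Dcc* UMI was 15.04% and 14.3% in control and 24.9% and 28.8% in ablated libraries, and after thinning to 1000 UMIs 3.60% and 3.93% against 10.3% and 8.52%.

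Cluster 6 was itself divided by genotype. At a resolution of 1.2 its cells fell into a finer cluster led by *Ptgis* and *Thbd*, with 89.2% and 92.6% of the control but 1.09% and 1.97% of the ablated cells, and another led by *Stc1* and *Chodl*, with 9.53% and 5.65% of the control and 96.9% in each ablated library. Within the *Stc1* finer cluster alone (46 and 26 control and 457 and 458 ablated cells), a choice made after the data were seen, *Dcc* was at 34.9 and 44.6 CPM in control, on 6 and 3 UMIs, and at 145 and 114 CPM in ablated libraries (1.70, SE 0.412, adjusted p = 0.00446). The other 3 members were not called there: *Unc5c* had a log2 fold change of 0.89 (adjusted p = 0.670), *Slit2* of 0.22 (0.771) and *Robo2* of 0.07 (0.968), with 95% intervals of -0.54 to 2.31, -0.24 to 0.67 and -0.46 to 0.60. The osteogenic-like cells were divided in part, with 62.9% of control cells in one finer cluster and 69.0% of ablated cells in another.

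It also rose in 4 populations with little *Dcc*. Cluster 0 had 5.44 and 6.37 CPM in control against 22.9 and 29.3 CPM (2.13, SE 0.281, adjusted p = 0.00174). In cluster 5 the values were 1.28 and 1.46 against 9.60 and 5.02 CPM (2.43, SE 0.610, adjusted p = 0.0108), which rest on 6 and 26 UMIs. Cluster 3 had 0 UMIs in both control libraries and 30 in each ablated one, at 7.05 and 16.9 CPM. Against a floor of 3 UMIs over both control libraries (0.614 CPM), *Dcc* in the 2 ablated libraries together, at 10.1 CPM, was 16.5-fold higher. That figure leaves out the spread between libraries. The quasi-likelihood fit gave a log2 fold change of 7.89 (adjusted p = 0.0120). In cluster 3 and in cluster 5, *Dcc* passed the filter on low counts only through the ablated libraries, so its calls there are descriptions. In the corpus cavernosum-like cells it was at 6.56 and 4.79 against 10.1 and 15.6 CPM (1.17, SE 0.357, adjusted p = 0.0488).

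The genotypes of *Dcc* did not overlap, but it was not called, in cluster 15 (7.38 and 6.97 against 26.5 and 24.8 CPM, adjusted p = 0.0598), the distal glans-like cells (4.05 and 1.16 against 15.9 and 6.59 CPM, adjusted p = 0.0640), the periurethra-like cells (6.11 and 12.7 against 42.4 and 15.9 CPM, adjusted p = 0.136) and the proliferative-like cells (3.21 and 5.52 against 12.3 and 6.39 CPM, adjusted p = 0.516). In cluster 15, *Dcc* passed the filter on low counts only through the ablated libraries, so its values there are descriptions. The second control library in the distal glans-like cells and the first in the proliferative-like cells also fell short of that filter. Over all genes and the 19 populations, 43.4% of tests had genotypes that did not overlap. The osteogenic-like cells overlapped, at 15.8 and 20.4 against 18.4 and 29.4 CPM (0.54, 95% interval -0.15 to 1.23). A test of whether the change in *Dcc* differed between the 19 populations gave an adjusted p of 0.4003. The call in cluster 3 was lost without the second control library and that in cluster 5 without the first or the second. Neither call could be recomputed after thinning, nor that in cluster 5 with DESeq2 or without the first ablated library. That in the corpus cavernosum-like cells was lost in 7 of 15 alternatives, with the highest adjusted p without the second ablated library (0.471), and also without the second control (0.0773), with DESeq2 (0.318), with no filter on low counts (0.154) and with the replicate number as a block (0.0696).

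**Figure D3:**
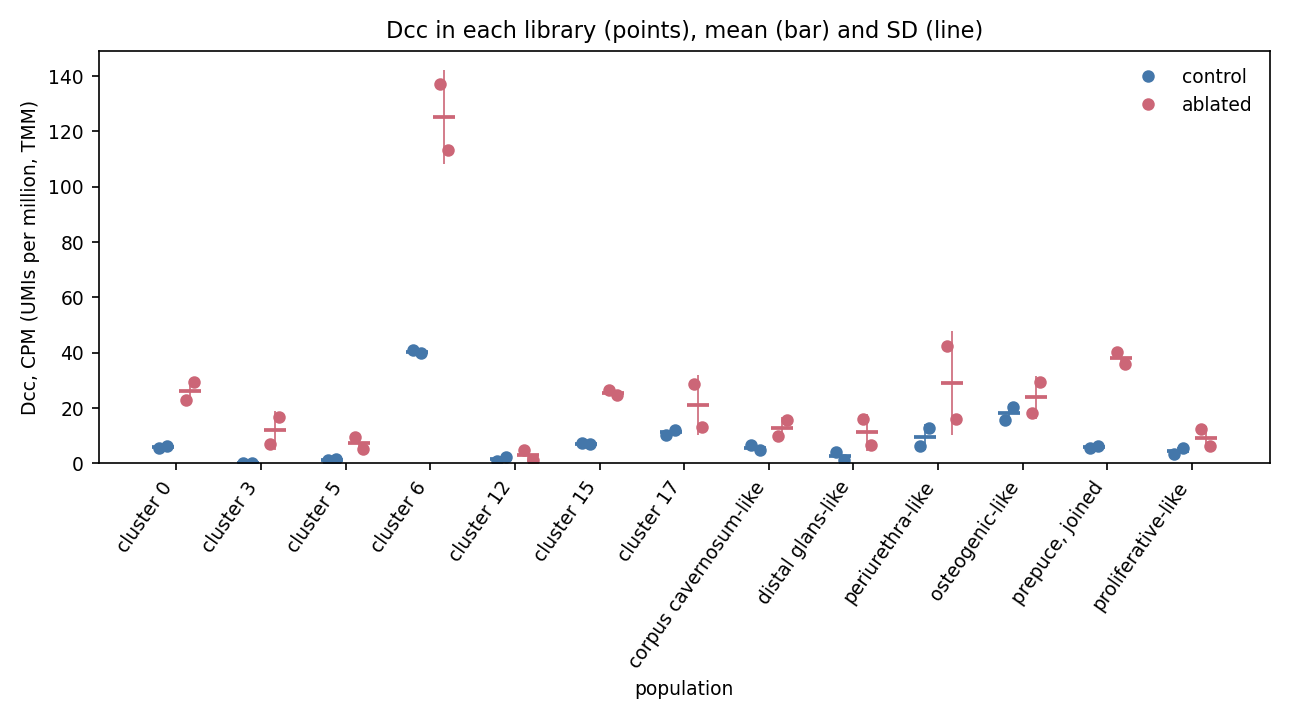
*Dcc* in CPM (y axis) in each library (points; blue control, red ablated) by population (x axis), with the mean as a bar and the SD as a line, n = 2 per genotype. Cluster 6 stands above the rest in both genotypes, and its ablated libraries, at 137 and 113 CPM, lie above its controls, at 41.0 and 39.7 CPM.

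*Unc5c*, the repulsive netrin receptor, rose in 3 populations. In cluster 0 it was at 24.5 and 22.6 CPM in control and 71.5 and 67.3 CPM in ablated libraries (1.56, SE 0.191, adjusted p = 0.00119), and in cluster 6 at 15.9 and 13.04 against 28.9 and 31.8 CPM (1.06, SE 0.270, adjusted p = 0.0175). The distal glans-like cells went from 116 and 113 to 172 and 156 CPM (0.52, SE 0.130, adjusted p = 0.0420). Both populations with the highest *Unc5c* were not called: cluster 17 overlapped, at 369 and 314 against 306 and 348 CPM (-0.06, 95% interval -0.42 to 0.30), and the osteogenic-like cells were at 185 and 187 against 220 and 305 CPM (0.51, adjusted p = 0.145). Its change differed between populations (interaction adjusted p = 0.00107). The call in cluster 6 was lost without the second control (adjusted p = 0.0709) or the second ablated library (0.0973), with DESeq2 (0.201), after thinning (0.177) and within its *Stc1* finer cluster. That in the distal glans-like cells was lost without the first (0.284) or the second (0.0841) ablated library, with DESeq2 (0.0678), after thinning (0.190), with no upper UMI limit (0.161) and at a resolution of 1.2 (0.116).

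*Unc5b*, *Neo1* and *Ntn1* were called in 0 populations by edgeR's quasi-likelihood test. At an unadjusted p under 0.05 *Unc5b* had 3 higher and 1 lower of 13, *Neo1* 0 of 15, and *Ntn1* 2 higher and 1 lower of 9. DESeq2 called 0 for each of them, and the likelihood ratio test called 1 for *Unc5b*, 1 for *Ntn1* and 0 for *Neo1*. In endothelium-like cells, where *Unc5b* was highest, it was at 62.5 and 104 CPM in control and 144 and 110 CPM in ablated libraries (0.63, adjusted p = 0.811). In cluster 3, where *Ntn1* was highest, its values were 81.3 and 90.0 against 88.1 and 70.9 CPM, and the genotypes overlapped. The 95% interval of that difference ran from -0.55 to 0.35 on the log2 scale. *Ntn1* in the periurethra-like cells was at 30.9 and 34.5 against 66.5 and 45.6 CPM (0.76, adjusted p = 0.117). Over all cells, the interval for *Neo1* was -0.32 to 0.27.

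Of the Slit ligands, *Slit2* rose in 5 populations. Cluster 5, where its mean over the 4 libraries was highest, went from 176 and 183 CPM to 380 and 429 CPM (1.17, SE 0.144, adjusted p = 4.43e-06). In the distal glans-like cells it was at 87.8 and 77.3 against 237 and 145 CPM (1.19, SE 0.199, adjusted p = 0.00738), and in the corpus cavernosum-like cells at 70.6 and 81.8 against 129 and 136 CPM (0.80, SE 0.160, adjusted p = 0.00422). The periurethra-like cells, which lie around the urethra, went from 61.1 and 63.0 to 113 and 98.4 CPM (0.77, SE 0.157, adjusted p = 0.0295). Cluster 6 went from 187 and 185 to 275 and 257 CPM (0.51, SE 0.152, adjusted p = 0.0352).

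All 13 populations in which *Slit2* was tested had a log2 fold change above 0, from 0.07 in the osteogenic-like cells to 1.19. In 11 of them the genotypes did not overlap, as in 43.4% of tests over all genes and the 19 populations. The populations share the same 4 libraries, so these counts are not independent. The size of the change differed between populations (interaction adjusted p = 0.00131). The calls in cluster 5 and the distal glans-like cells held in every alternative that could be computed, but that in cluster 5 was not recomputed under another clustering. The call in the periurethra-like cells was lost without the first or the second control (adjusted p = 0.195 and 0.149) or the first ablated library (0.0631), with DESeq2 (0.0775), after thinning (0.156) and at a resolution of 1.2 (0.0544). That in cluster 6 was lost without any one of the 4 libraries (0.101 to 0.302), with the replicate block (0.0660), with DESeq2 (0.113), after thinning (0.0755) and within its *Stc1* finer cluster, and that in the corpus cavernosum-like cells without the second ablated library (0.0772).

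*Robo2*, a Slit receptor, rose in 5 populations as well. It was at 71.0 and 56.4 CPM in control and 155 and 177 CPM in ablated libraries in cluster 17 (1.40, SE 0.219, adjusted p = 0.000829), and at 82.1 and 97.7 against 199.95 and 167 CPM in the osteogenic-like cells (1.04, SE 0.184, adjusted p = 0.00525). Cluster 12 went from 145 and 155 to 228 and 376 CPM (1.05, SE 0.216, adjusted p = 0.0366). In the distal glans-like cells the values were 86.4 and 87.0 against 113 and 175 CPM (0.75, SE 0.184, adjusted p = 0.0374), and in cluster 6 104 and 114 against 177 and 147 CPM (0.57, SE 0.170, adjusted p = 0.0376).

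In cluster 3, where *Robo2* was highest, the genotypes overlapped, at 296 and 416 against 311 and 275 CPM (-0.28, 95% interval -0.70 to 0.14). Corpus cavernosum-like cells had 76.8 and 82.2 against 76.0 and 72.8 CPM (-0.09, 95% interval -0.44 to 0.25). The change of *Robo2* differed between populations (interaction adjusted p = 0.000778). Without the second ablated library the calls in cluster 12 (adjusted p = 0.743), cluster 17 (0.0619) and the distal glans-like cells (0.404, with a log2 fold change of 0.38) were lost, and that in cluster 6 was lost without any one of the 4 libraries (0.0744 to 0.411), with DESeq2 (0.156), after thinning (0.415) and within its *Stc1* finer cluster. The call in cluster 12 was also lost with DESeq2 (0.176), after thinning (0.103) and with the replicate numbers crossed (0.181), that in the distal glans-like cells after thinning (0.186) and with no upper UMI limit (0.0680), and that in the osteogenic-like cells at a resolution of 1.2 (0.470). At that resolution the osteogenic-like name covered 1 finer cluster, with 202 and 170 control and 68 and 234 ablated cells. Another finer cluster, without that name, held 45.3% and 21.7% of the control and 78.2% and 64.9% of the ablated osteogenic-like cells.

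**Figure D4:**
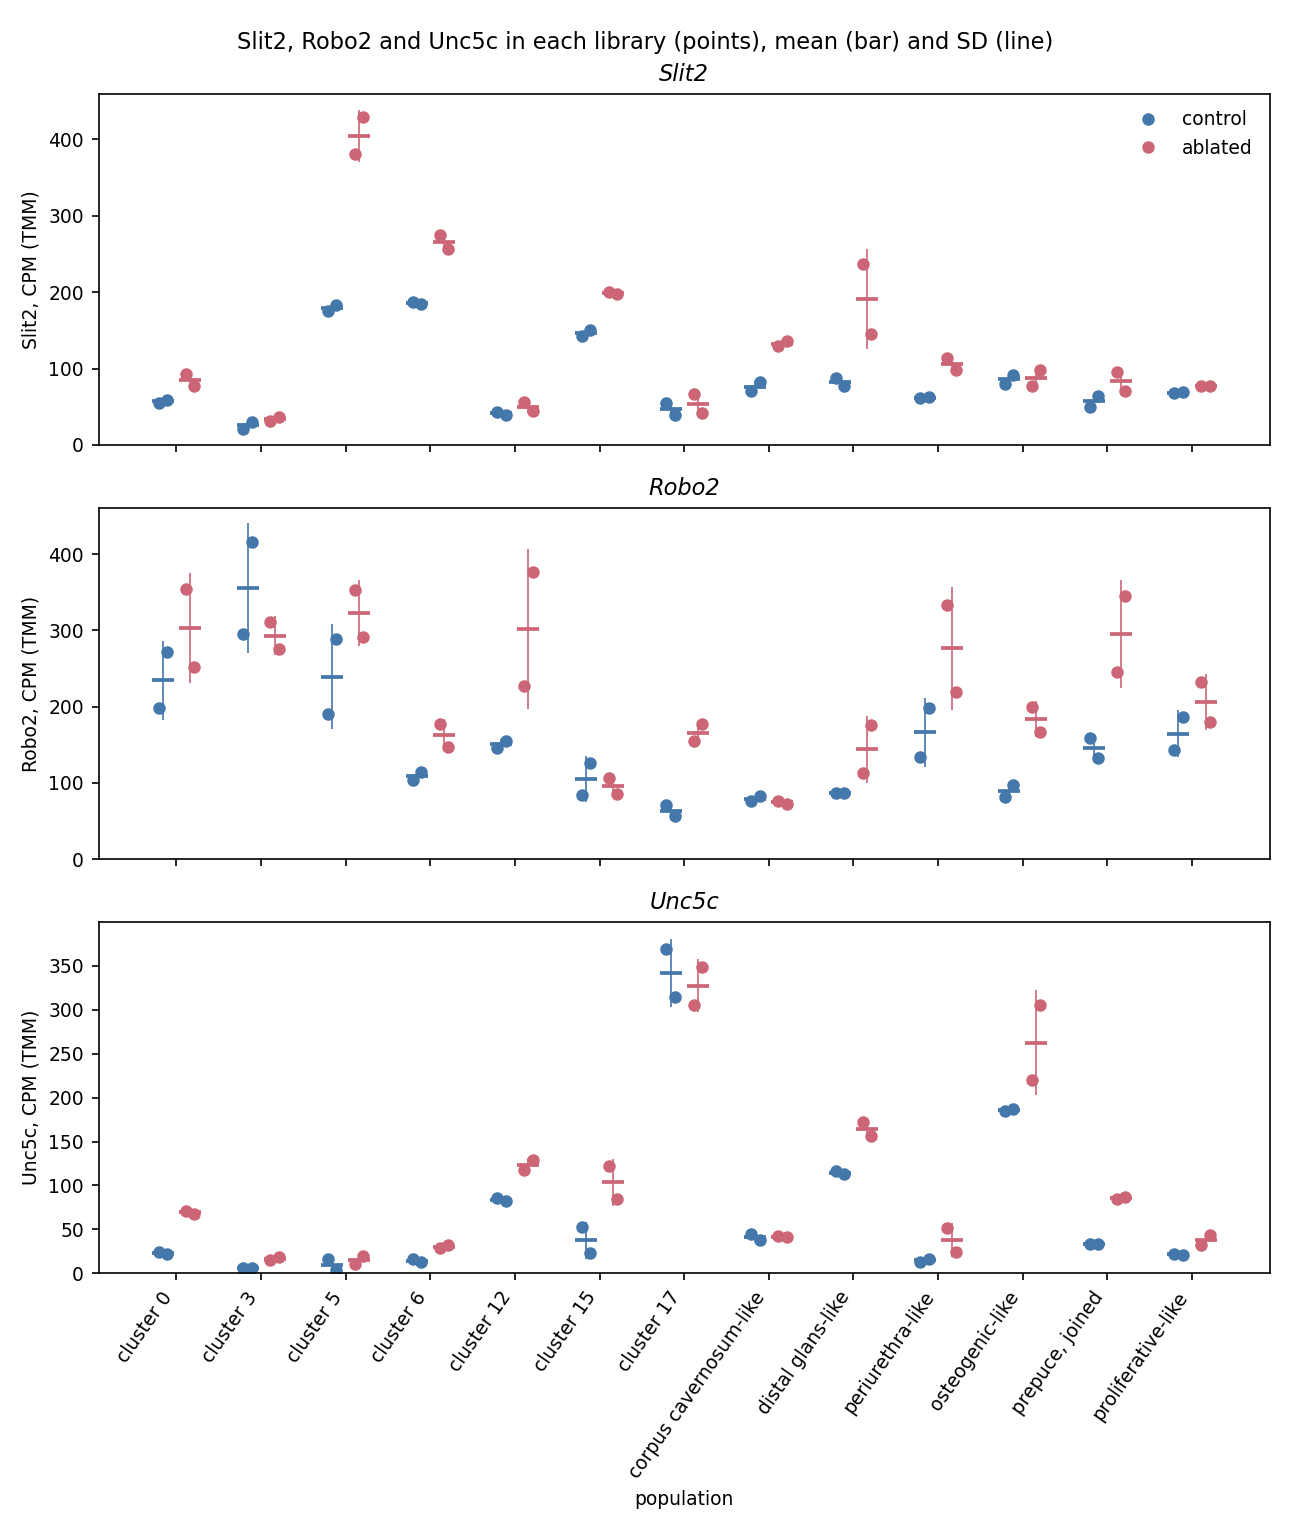
*Slit2*, *Robo2* and *Unc5c* in CPM (y axes) in each library (points; blue control, red ablated) by population (x axis), with the mean as a bar and the SD as a line, n = 2 per genotype. *Slit2* is apart by genotype in cluster 5 (176 and 183 against 380 and 429 CPM), *Robo2* is apart in cluster 17, and *Unc5c* is apart in cluster 0 but not in cluster 17.

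*Robo1* was called in 0 of 15 populations by edgeR's quasi-likelihood test, with 2 higher at an unadjusted p under 0.05, while DESeq2 called 0 and the likelihood ratio test 1. In cluster 12, where it was highest, it was at 161 and 196 CPM in control and 198 and 251 CPM in ablated libraries (0.38, adjusted p = 0.528). *Slit3* was called in 0 of 16, with 3 higher and 1 lower at an unadjusted p under 0.05, and DESeq2 called 0 and the likelihood ratio test 1. In cluster 15, its highest among the 19 populations, the values were 174 and 150.3 against 149.99 and 118 CPM (-0.27, adjusted p = 0.828). In the distal glans-like cells they were 101 and 85.0 against 155 and 120 CPM (0.55, adjusted p = 0.0705). The interaction test gave an adjusted p of 0.0904 for *Slit3*, 0.0740 for *Unc5b*, 0.217 for *Robo1*, 0.279 for *Ntn1* and 0.476 for *Neo1*. Of all 13299 genes in that test, 7.66% were called. Of the members, 3 of 9 were, and without the second control library 0 of 9.

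The prepuce-like cells could not be tested class by class. The subdermal prepuce-like class held 251 and 836 cells in control but 23 and 7 in ablated libraries, and the general prepuce-like class 98 and 18 against 833 and 958, so neither had 20 cells in every library. Joined, a choice made after the data were seen, they held 349 and 854 against 856 and 965 cells, of which 71.9% and 97.9% were of the subdermal class in control and 2.69% and 0.725% in ablated libraries. Cluster 11 therefore held most of the joined cells in control, and clusters 13 and 16 most of them in ablated penises.

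With that mix, *Dcc* was at 5.58 and 6.42 CPM in control and 40.1 and 36.0 CPM in ablated libraries (2.63, SE 0.246, adjusted p = 0.00117; 0.96 and 0.0439 at a resolution of 1.2, where the *Ptgis* finer cluster was named subdermal prepuce-like) and *Unc5c* at 32.9 and 33.4 against 84.9 and 87.0 CPM (1.37, SE 0.175, adjusted p = 0.00467). *Robo2* was at 159 and 133 against 245 and 346 CPM (1.03, SE 0.197, adjusted p = 0.0261). *Slit3* fell, from 173 and 202 to 57.1 and 74.0 CPM (-1.52, SE 0.186, adjusted p = 0.00390). In this joined population 1.43% of all genes were called higher and 2.14% lower, and 3 members were called higher and 1 lower.

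Within the general class alone, *Dcc* was at 4.52 and 0 CPM in control, on 2 and 0 UMIs, and at 44.2 and 38.5 CPM in ablated libraries, and *Unc5c* at 20.3 and 29.7 against 89.1 and 92.7 CPM. *Robo2* in that class was at 278 and 223 against 262 and 369 CPM, and *Slit3* at 194 and 74.2 against 53.8 and 78.0 CPM, so both overlapped. That class is itself 2 clusters, with 96 and 13 control cells against 293 and 654 ablated cells in cluster 13 and 2 and 5 against 540 and 304 in cluster 16. Within cluster 13, *Dcc* was at 4.31 and 0 CPM in control, on 2 and 0 UMIs, and at 38.4 and 30.9 CPM in ablated libraries, and *Unc5c* at 17.2 and 40.7 CPM, on 8 and 2 UMIs, against 101 and 104 CPM. In the subdermal class, *Slit3* was at 168 and 199 CPM in control and at 233 and 103 CPM, on 30 and 5 UMIs, in ablated libraries, and *Robo2* at 121 and 127 against 209.5 and 103 CPM. The differences of *Slit3* and *Robo2* in the joined population thus moved with the class that held the cells, and their part in the result was not tested. The call of *Robo2* was lost with no upper UMI limit (0.41, adjusted p = 0.274), without the second control (0.0989) or without the second ablated library (0.0903), and the value of *Slit3* was -0.86 at a resolution of 0.4 (adjusted p = 0.0214).

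**Figure D5:**
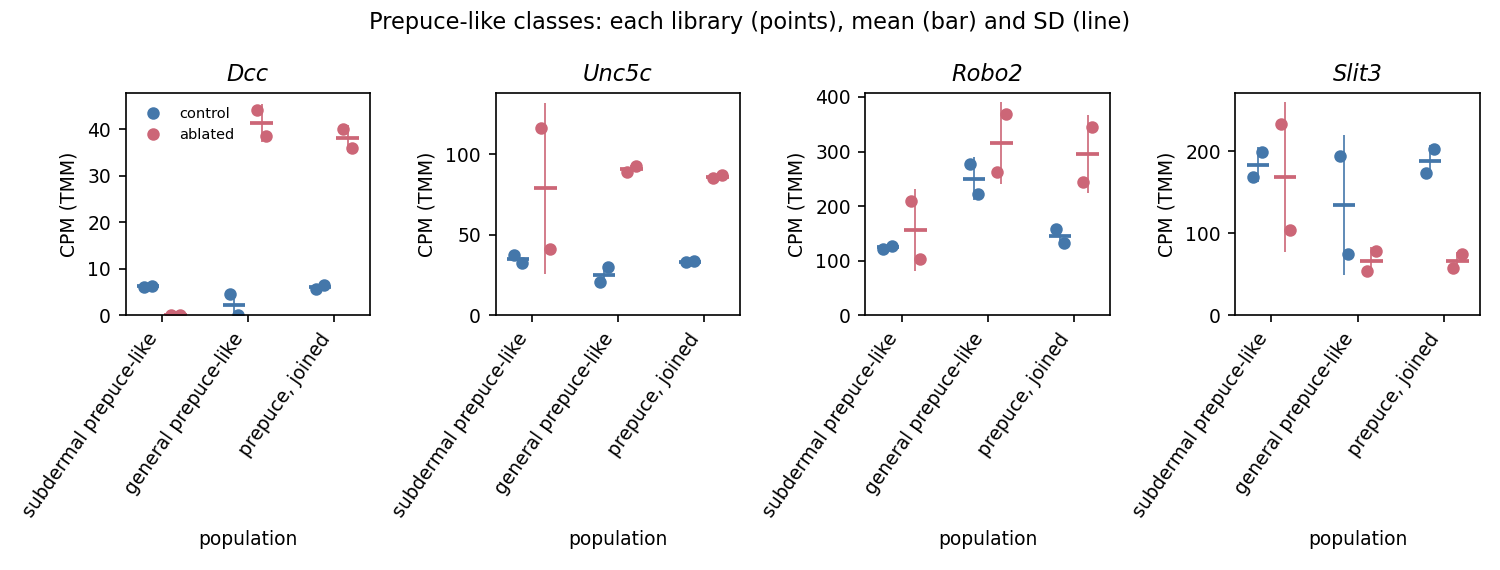
*Dcc*, *Unc5c*, *Robo2* and *Slit3* in CPM (y axes) in the subdermal prepuce-like class, the general prepuce-like class and both joined (x axis); points are libraries (blue control, red ablated), bars means and lines SDs, n = 2 per genotype. *Dcc* and *Unc5c* are apart by genotype in the general class, whose control cells lay mostly in cluster 13 and whose ablated cells lay in clusters 13 and 16, and *Slit3* overlaps in each class alone, though the joined values are apart.

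The other genes of the pathway were taken as a list of 44, of which 36 passed the filter in at least 1 population. They were called in 24 of 470 tests, 21 higher and 3 lower, against 1.52% higher and 1.63% lower over all genes, and their median log2 fold change was 0.12. Of the other ligands 7 of 81 tests were higher and 1 lower, of the other receptors 4 of 14 higher, of the co-receptors 6 of 122 higher and 2 lower, and of the intracellular partners 4 of 253 higher. Over all cells, 0 of 38 were called. This list, too, was chosen with earlier results of these data known, so its share of calls is a description.

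*Unc5d*, a relative of *Unc5c*, rose in 4 populations. In cluster 5 it was at 53.4 and 30.2 CPM in control and 115 and 100.4 CPM in ablated libraries (1.36, SE 0.213, adjusted p = 0.000106), and in the distal glans-like cells at 48.3 and 45.8 against 93.9 and 98.1 CPM (1.03, SE 0.149, adjusted p = 0.00407). Cluster 17 (33.4 and 15.2 against 83.3 and 61.0 CPM, 1.61) and cluster 6 (3.96 and 2.96 against 15.2 and 12.1 CPM, 1.92) were the others. In cluster 6, *Unc5d* passed the filter on low counts only through the ablated libraries.

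The FLRT proteins bind UNC5 receptors and the latrophilins. *Flrt2* rose in cluster 0 (18.7 and 18.4 against 35.8 and 38.3 CPM, 1.00), cluster 5 (54.2 and 52.6 against 102 and 81.0 CPM, 0.79), the osteogenic-like cells (179 and 207 against 308 and 342 CPM, 0.77) and the periurethra-like cells (120 and 147 against 342 and 203 CPM, 1.02, adjusted p = 0.0446). *Adgrl3*, a latrophilin that binds FLRT proteins, rose in 5 populations, from 128 and 143 to 306 and 306 CPM in cluster 5 (1.17, SE 0.149, adjusted p = 6.55e-06), from 96.0 and 67.1 to 201 and 173 CPM in the osteogenic-like cells (1.14, adjusted p = 0.00432), and by 0.70 to 0.83 on the log2 scale in clusters 0 and 6 and the corpus cavernosum-like cells. In cluster 6, *Flrt1* rose (13.2 and 17.2 against 32.8 and 28.0 CPM, 1.01) and *Flrt3* fell (49.8 and 46.8 against 29.7 and 28.6 CPM, -0.73, adjusted p = 0.0384). *Flrt3* lies outside the rule for named genes, and was named after its values were seen because it is 1 of the 3 listed tests that fell.

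*Rgma*, a ligand of neogenin, rose in cluster 5 (9.82 and 9.74 against 24.2 and 17.2 CPM, 1.11) and cluster 6 (12.8 and 13.6 against 25.1 and 26.7 CPM, 0.98). Of the Slit-Robo GTPase activating proteins, which act downstream of Robo receptors, *Srgap3* was called in 2 of 11 tests, *Srgap1* in 1 of 14 and *Srgap2* in 0 of 18. The calls were *Srgap3* in cluster 6 (7.93 and 16.6 against 29.7 and 24.2 CPM, 1.18) and the distal glans-like cells (17.6 and 26.0 against 48.2 and 33.7 CPM, 0.91), and *Srgap1* in cluster 5 (38.4 and 24.4 against 51.0 and 56.6 CPM, 0.76). Of all genes, 5.13%, 2.03% and 5.09% were called higher in these populations, in that order. *Lrig3* rose in cluster 6 (0.78) and *Ablim1*, an actin-binding protein, in the distal glans-like cells (0.95). *Gpc1*, a heparan sulfate proteoglycan that binds Slit proteins, fell in cluster 17 (43.8 and 59.5 against 20.8 and 23.0 CPM, -1.24) and the corpus cavernosum-like cells (39.7 and 33.5 against 24.7 and 19.9 CPM, -0.72). In the joined prepuce-like classes *Ablim1* fell (78.1 and 125 against 53.2 and 39.5 CPM, -1.15, adjusted p = 0.0424).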

How the data were processed

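Single-cell 3' libraries (10x Genomics) were made from E16.5 penises, 2 per genotype. The deposited UMI counts per gene and cell were made by the authors with Cell Ranger (4.0.0 in the file headers and the submitters' processing notes) on mm10 with reporter sequences added. Cells with over 1000 and under 7500 UMIs, at most 25% mitochondrial, 25% *Hba* and 50% *Hbb* UMIs were kept. Seurat 5.3.0 clustered them without the guidance genes. A cluster was named from at least 3 markers detected in 5% of its cells at a log2 fold of 0.8 (10 CPM added), a rule set with the data seen. No doublets were removed in the main analysis. The UMI counts of each population were added up within a library, and genotypes were compared by the quasi-likelihood test of edgeR 4.0.16 after TMM scaling and filterByExpr. P-values were adjusted over all genes (Benjamini-Hochberg). DESeq2 1.42.0 was an alternative. Populations needed 20 cells in every library. An interaction test compared the genotype difference among 19 populations, with the library as a block.

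The 9 genes and the list of 44 others were chosen with earlier results of these data known. Named were all 9 genes, the listed genes that were called (up to 6 per population by size), and the 3 genes most like each member, of which 1 is not reported here. Shares were compared after thinning to 1000 UMIs per cell. Intervals of log2 fold changes are at 95% from the quasi-likelihood fit. A count of 0 is given a floor of 3, which covers counting error only. With 2 libraries against 2, an exact permutation test cannot go below 0.333, so none was used. On simulated data with 200 genes changed by a log2 of 1, the test recovered 68.5% over all cells (15977 genes) and 55.5% in cluster 6 (9941 genes). The interaction test recovered 29.5% of 200 genes changed by a log2 of 1 in a part of the populations (3000 genes). A gene not called by it can therefore still differ between populations.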

Additional observations from a re-analysis of the deposited data

Results flagged for a closer look

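For 3 genes the genotype difference itself differed between the 19 populations, by the interaction test with Benjamini-Hochberg adjustment over all genes in edgeR: *Robo2* (adjusted p = 0.000778), *Unc5c* (adjusted p = 0.00107) and *Slit2* (adjusted p = 0.00131). For *Robo2* the log2 fold change was 1.40 in cluster 17 and -0.28 in cluster 3. For *Unc5c* it was 1.56 in cluster 0 and -0.06 in cluster 17. For *Slit2* it was 1.17 in cluster 5 and 0.07 in the osteogenic-like cells. None of these 3 was called without the second control library.

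Cells at or over 7500 UMIs, 2513 and 1286 in control and 1130 and 1117 in ablated libraries, were outside the comparisons. Of the 9 genes, 3 were higher in both ablated libraries than in both controls there and 1 was lower, where 26.9% and 12.4% of 15977 genes were. *Dcc* had a mean of 15.8 ± 2.35 CPM (SD, n = 2) in ablated and 4.02 ± 0.613 CPM in control libraries, on 116 and 68 UMIs in control and 211 and 232 in ablated libraries. *Robo2* was at 159 ± 16.3 against 114 ± 16.4 CPM. *Unc5b* was at 31.5 ± 3.60 against 22.3 ± 6.73 CPM, a difference within the sum of the SDs. *Slit3* was lower, at 53.5 ± 2.25 against 65.6 ± 8.31 CPM. These cells were not tested, and cells of very high UMI count can be doublets.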

How the results depend on the processing

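Of the 22 calls of a member in a population, the joined prepuce-like classes included, 8 were kept in every alternative that could be computed. With no upper UMI limit, at resolutions of 0.4 and 1.2 and with the guidance genes kept for clustering, 11 of the 22 could be computed. Calls in numbered clusters were not among them. Of the 8, *Dcc* and *Unc5c* in cluster 0, *Slit2* in cluster 5 and *Dcc* in cluster 6 thus had 12 or 13 alternatives. *Dcc*, *Unc5c* and *Slit3* in the joined prepuce-like classes had 16, but there the class mix differed by genotype. *Slit2* in the distal glans-like cells, with 16, was the other. Over 307 recomputed values, 252 stayed called, 55 lost the call and 0 changed sign. The second ablated library ended 10 calls when left out, the second control 8, DESeq2 7 and thinning to 1000 UMIs 7, and 3 of the 4 calls in cluster 6 were lost within its larger finer cluster, a choice made after seeing the data; for thinning, fewer tests passed the filter (78 of 119). *Dcc* over all cells stayed called in all 15 alternatives.

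Over all cells 1 member was called, 3 with DESeq2, 3 with the likelihood ratio test and 3 with no filter on low counts. The calls over all genes moved too. They were 78 of 15977 in the main analysis, 555 of 15047 with DESeq2, 658 of 15977 with the likelihood ratio test and 659 of 23574 with no filter. By population 18 were called, 10 with DESeq2, 29 with the likelihood ratio test, 29 with no filter and 8 after thinning. Here, too, the calls over all genes moved. In cluster 6 they were 1121 of 9941 in the main analysis, 456 of 9941 with DESeq2 and 1374 of 9941 with the likelihood ratio test. They were 1430 of 17109 there with no filter and 476 of 6106 after thinning. In the corpus cavernosum-like cells they fell from 928 of 11069 to 213 of 18179 with no filter. The 24 calls of pathway genes became 8 with DESeq2, 11 after thinning, 15 at a clustering resolution of 1.2 and 16 to 30 with 1 library left out. The 3 interaction calls became 7 with the likelihood ratio test, 6 with no filter, 6 with no upper UMI limit, 5 at a resolution of 0.4, 5 with the joined prepuce-like classes added and 0 to 6 with 1 library left out. With 1 library left out, the log2 fold change over all cells of *Neo1* (-0.02) ran from -0.12 to 0.082, turning above 0 without the second control (0.082) or the first ablated library (0.0073), and that of *Ntn1* (0.10) from -0.14, without the first control, to 0.39; none was called. In the main interaction test 7.66% of all 13299 genes were called, and the shares in its alternatives are not given here. The counts of members called are therefore descriptions, and the cause of these moves was not tested.

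The replicate numbers are only shared: same-numbered libraries did not deviate together (r = -0.23 across genes over all cells). With the number as a replicate block, 2 members were called over all cells and 23 by population, 27 pathway tests and 2 interactions. With the numbers crossed, a choice made after seeing the data, the counts were 4 over all cells and 32 by population. Of all 15977 genes over all cells, 78 were called in the main analysis, 335 with the block and 1668 with the numbers crossed. With the numbers crossed, the calls over all genes rose in cluster 5 from 985 to 1511 of 10080 and fell in cluster 6 from 1121 to 1023 of 9941. The gain in members called is therefore a description.

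Depth limits the low genes: *Dcc* in cluster 5 rests on 6 UMIs in control, and 2 libraries per genotype limit every test.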
